A study of Homo sapiens with 12 samples.

Results

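The genes described here are 8 of the 9 protein arginine methyltransferase genes of the PRMT family, PRMT1, PRMT2, PRMT3, CARM1, PRMT5, PRMT6, PRMT7 and PRMT9, and 2 partners of PRMT5, WDR77 and CLNS1A. They were taken from the deposited table by gene name and are 10 of the 58735 genes in it. TIGK cells are human keratinocytes of the gingiva that were immortalized with the telomerase gene hTERT, so the data come from 1 cell line. Poly(A) RNA sequencing was performed at 48 mM glucose on cells given 500 µM L-arginine (Arg) and on untreated control cells given none, after 24 and 48 h, with 3 libraries (A, B, and C) in each of the 4 groups. All groups shared the high glucose, the hTERT gene, and a medium made without Arg, so the control is a culture without added Arg rather than one at a usual Arg level. The sources used here do not say that the 3 libraries of a group came from separate cultures, and the p-values measure the spread between these samples. Each library held between 16542243 and 19040964 gene counts.

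Protein arginine methyltransferases (PRMTs) transfer methyl groups from S-adenosylmethionine to arginine residues that are already part of a protein. Type I enzymes (PRMT1, PRMT2, PRMT3, CARM1, and PRMT6) form asymmetric dimethylarginine, type II enzymes (PRMT5 and PRMT9) form symmetric dimethylarginine, and the type III enzyme PRMT7 forms only monomethylarginine. PRMT5 works in a complex with the WD-repeat protein WDR77, also called MEP50, and CLNS1A, also called pICln, brings the Sm proteins of the spliceosome to that complex. Their known substrates include histones, RNA-binding proteins with glycine- and arginine-rich stretches, and splicing factors.

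The promoters of 3 genes are shown, because PRMT1, PRMT5, and WDR77 carry most of the results that follow. Each is the sequence just before the RefSeq start site, on the strand of the gene (GRCh38.p14). PRMT1 lies on chromosome 19 (plus strand, chr19:49677021-49677270) and PRMT5 on chromosome 14 (minus strand, chr14:22929377-22929626), with CCAAT in capitals where it reads on either strand (ATTGG on the other). WDR77 lies on chromosome 1 (minus strand, chr1:111449257-111449463), with TCTCGCGAGA in capitals, the longest palindrome that occurs more than once in this stretch.
PRMT1: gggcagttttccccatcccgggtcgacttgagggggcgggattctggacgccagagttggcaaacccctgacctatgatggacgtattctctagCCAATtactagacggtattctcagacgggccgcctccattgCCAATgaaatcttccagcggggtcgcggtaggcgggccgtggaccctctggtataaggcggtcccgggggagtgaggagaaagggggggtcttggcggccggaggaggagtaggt
PRMT5: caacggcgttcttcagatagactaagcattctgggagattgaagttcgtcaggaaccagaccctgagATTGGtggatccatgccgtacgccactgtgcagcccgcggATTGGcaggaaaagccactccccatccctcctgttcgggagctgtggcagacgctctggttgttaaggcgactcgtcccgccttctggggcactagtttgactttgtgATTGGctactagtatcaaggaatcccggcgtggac
WDR77: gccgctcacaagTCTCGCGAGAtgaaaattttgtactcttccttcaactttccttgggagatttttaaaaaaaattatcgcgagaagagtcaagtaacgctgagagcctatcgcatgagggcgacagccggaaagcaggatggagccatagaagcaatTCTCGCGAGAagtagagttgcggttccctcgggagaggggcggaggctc
The WDR77 stretch ends after 207 bases, because the start site of ATP5PB, a subunit gene of the mitochondrial ATP synthase on the opposite strand, lies 208 bases from that of WDR77. PRMT1 held CCAAT at 2 places in the 250 bases before its start and PRMT5 at 3, while the other 8 genes had none. CCAAT occurred in 32.0% of all 35116 RefSeq promoters of this length. TCTCGCGAGA occurred at 2 places before WDR77, in none of the other 9 genes, and in 0.373% of all promoters. This palindrome was searched after the sequence had been seen. The other motifs were also searched on both strands. The GC box GGGCGG lay before 7 of the 10 genes (42.6% of all promoters). The E-box CACGTG lay before PRMT3 (6.34%), and the ETS motif CCGGAAG before PRMT3 and CLNS1A (8.52%). The TATA box TATAAA was found before none of the 10 genes and occurred in 10.7% of all promoters. The G and C content was 61.2% before PRMT1, 55.6% before PRMT5, and 50.2% before WDR77, against a median of 58% over all promoters. These matches describe letters in a window and were not tested for binding.

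In the coordinates deposited with the counts (GRCh38/hg38), the genes on the plus strand were PRMT1 at chr19:49675786-49689029, PRMT2 at chr21:46635167-46665124, PRMT3 at chr11:20387530-20509294, CARM1 at chr19:10871513-10923070, PRMT6 at chr1:107056679-107067636, and PRMT7 at chr16:68310974-68358563. Those on the minus strand were PRMT5 at chr14:22920511-22929585, PRMT9 at chr4:147637785-147684230, WDR77 at chr1:111439890-111449376, and CLNS1A at chr11:77514936-77637805. The counts are per gene, so no isoform can be read from them.

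All 10 genes were counted in all 12 libraries, and all passed the filter on low counts in every comparison. The lowest count was 298, for PRMT9, and the highest was 8772, for PRMT1. To compare genes with each other, counts relative to the library total (CPM, scaled by the TMM method) were divided by the exonic length deposited with the counts. On this scale, the untreated control at 24 h had its highest level for PRMT1, the main type I enzyme, at 92.0 ± 7.60 CPM per kilobase (SD, n = 3). CLNS1A followed at 55.3 ± 2.06, WDR77 at 45.4 ± 3.50, PRMT5 at 45.3 ± 2.17, and CARM1, a type I coactivator of transcription, at 37.8 ± 0.886 CPM per kilobase. WDR77 and PRMT5 overlapped, whereas the other neighbours in this upper part of the order did not. A second tier held PRMT3, which methylates the ribosomal protein RPS2, at 14.5 ± 1.29, PRMT7 at 12.8 ± 0.366, the nuclear histone H3 enzyme PRMT6 at 11.8 ± 0.910, and PRMT2, a type I enzyme with an SH3 domain, at 11.0 ± 0.571 CPM per kilobase. PRMT7 and PRMT6 overlapped, and so did PRMT6 and PRMT2. PRMT9, the second type II enzyme, was lowest at 4.58 ± 0.524 CPM per kilobase. PRMT8, a type I enzyme known from the brain, had 6 counts in all, spread over 3 of the 12 libraries, and was not tested.

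PRMT1 stayed highest, CLNS1A second, and PRMT9 lowest by their means in all 4 groups on this scale, although CLNS1A and PRMT5 overlapped with Arg at 24 h. The deposited length counts the exons of every listed transcript, which makes 4796 bases for PRMT1 against 1328 for its canonical transcript in GENCODE v44. Per kilobase of canonical transcript, PRMT1 stood at 332 ± 27.5 and CLNS1A at 85.1 ± 3.17 in the control at 24 h, and PRMT5 (68.1 ± 3.27) was apart from WDR77 (51.9 ± 3.99). PRMT2 took a higher place in that order, at 37.7 ± 1.95, since its deposited length of 8031 bases stands against a canonical 2354. The extremes of the order therefore held on both lengths, but the middle did not. By deposited length, PRMT1 made up 40.0 ± 1.79% of the summed levels of the 8 enzymes in the control at 24 h, and by canonical length 57.5 ± 1.89%.

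**Figure D1:**
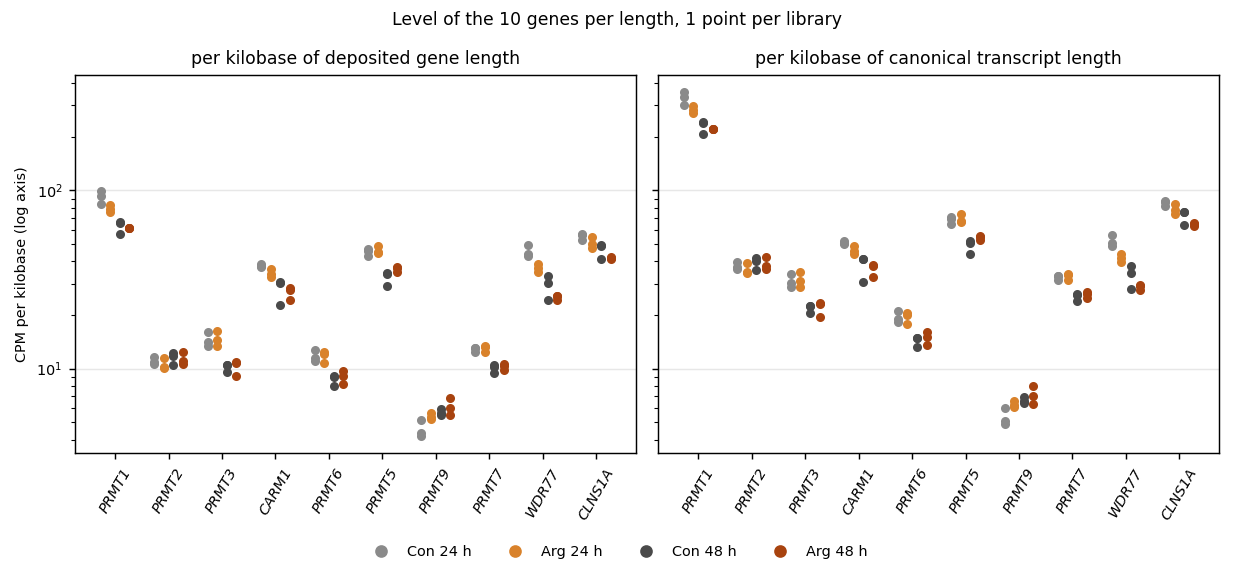
Level of each gene in CPM per kilobase (log axis) in each of the 12 libraries, by deposited gene length (left) and by canonical transcript length (right), with points coloured by group. PRMT1 is highest and PRMT9 lowest in every library on both scales, while the genes between them change places.

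The comparison of 48 h with 24 h asks how these genes moved with time in culture. Without Arg, 7 of the 10 genes were lower at 48 h at an adjusted p under 0.05, against 10% of all tested genes called lower and 19.9% called in either direction. With Arg, 8 of the 10 were lower, against 14% called lower and 28.3% called in either direction. No member was called higher in either comparison, where 9.9% and 14.3% of all tested genes were. The median log2 fold change of the 10 genes was -0.44 without Arg and -0.35 with Arg, beside medians of 0.01 and 0.00092 over all tested genes. In bulk RNA, a lower level per cell and fewer cells that carry the transcript cannot be told apart. Each of these comparisons shares its control or Arg libraries with the comparisons of Arg that follow.

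The type I enzymes fell, apart from PRMT2. PRMT1 was counted at 475, 403, and 445 CPM in the controls A, B, and C at 24 h and at 320, 275, and 316 CPM at 48 h. All 3 libraries at 48 h lay below all 3 at 24 h, and the level fell by 31.0% (log2 fold change -0.54, SE 0.085, adjusted p = 0.00292). With Arg, PRMT1 went from 395, 378, and 363 CPM to 295, 294, and 294 CPM, again without overlap (log2 fold change -0.36, SE 0.063, adjusted p = 0.000250). PRMT3 fell by 29.7% without Arg (adjusted p = 0.00404) and by 30.2% with Arg (adjusted p = 0.000278). CARM1 fell by 26.1% without Arg (adjusted p = 0.0142) and by 22.0% with Arg (adjusted p = 0.00135). The change without Arg had an adjusted p of 0.0690 without control replicate A at 24 h and of 0.0513 without replicate C, and in the 7 alternative analyses of all libraries the adjusted p was between 1.87e-05 and 0.0264. PRMT6 fell by 26.2% and 22.9% (adjusted p = 0.00969 and 0.00436). PRMT2 had log2 fold changes of 0.06 (95% interval -0.13 to 0.24) without Arg and 0.10 (-0.07 to 0.27) with Arg, and its groups overlapped in both comparisons.

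Among the other enzymes, PRMT5 also fell. Its levels were 158, 149, and 164 CPM in the controls at 24 h and 119, 101, and 117 CPM at 48 h, and the groups did not overlap (log2 fold change -0.48, SE 0.084, adjusted p = 0.00406). With Arg, PRMT5 went from 169, 154, and 156 CPM to 121, 127, and 129 CPM (log2 fold change -0.35, SE 0.069, adjusted p = 0.000859). PRMT7, the monomethylating enzyme, fell by 21.5% without Arg (adjusted p = 0.00930) and by 21.0% with Arg (adjusted p = 0.00135). Without control replicate A at 24 h, the first of these had an adjusted p of 0.0533, and in the 7 alternative analyses the adjusted p was between 0.00111 and 0.0222. PRMT9, which methylates the splicing factor SF3B2, stood at 17.6, 16.8, and 20.8 CPM in the controls at 24 h and at 22.1, 24.0, and 22.7 CPM at 48 h. It was the only member whose libraries were all higher at 48 h in the controls, but it did not pass the test (log2 fold change 0.32, 95% interval 0.06 to 0.58, adjusted p = 0.0797). With library size as the only scaling its adjusted p was 0.0422, with all 12 libraries in a single model it was 0.0471, and over the alternatives it ran from 0.0422 to 0.149. With Arg, the PRMT9 groups overlapped (log2 fold change 0.17, adjusted p = 0.250).

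WDR77 had the largest log2 fold change of the 10 genes with time in both conditions. The controls held 139, 120, and 124 CPM at 24 h and 85.0, 68.4, and 92.4 CPM at 48 h, a fall by 35.6% (log2 fold change -0.63, SE 0.11, adjusted p = 0.00370). The Arg-treated libraries held 108, 102, and 98.0 CPM at 24 h and 72.0, 71.3, and 67.9 CPM at 48 h (log2 fold change -0.54, SE 0.074, adjusted p = 2.08e-05). CLNS1A went from 262, 243, and 257 CPM to 225, 190, and 226 CPM in the controls. These groups did not overlap, but the change just missed the threshold (log2 fold change -0.25, SE 0.082, adjusted p = 0.0521). It passed in 5 of 7 alternative analyses, with adjusted p-values from 0.00915 to 0.120, and the replicate block, which gave the lowest of them, is described with the alternatives. With Arg, CLNS1A fell by 17.6% (log2 fold change -0.28, SE 0.068, adjusted p = 0.00454). Leaving out 1 library at a time, between 5 and 8 of the 10 genes were called without Arg, and 8 in every case with Arg. How many of all tested genes were called in those fits is not given here, so these counts cannot be set against that share.

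**Figure D2:**
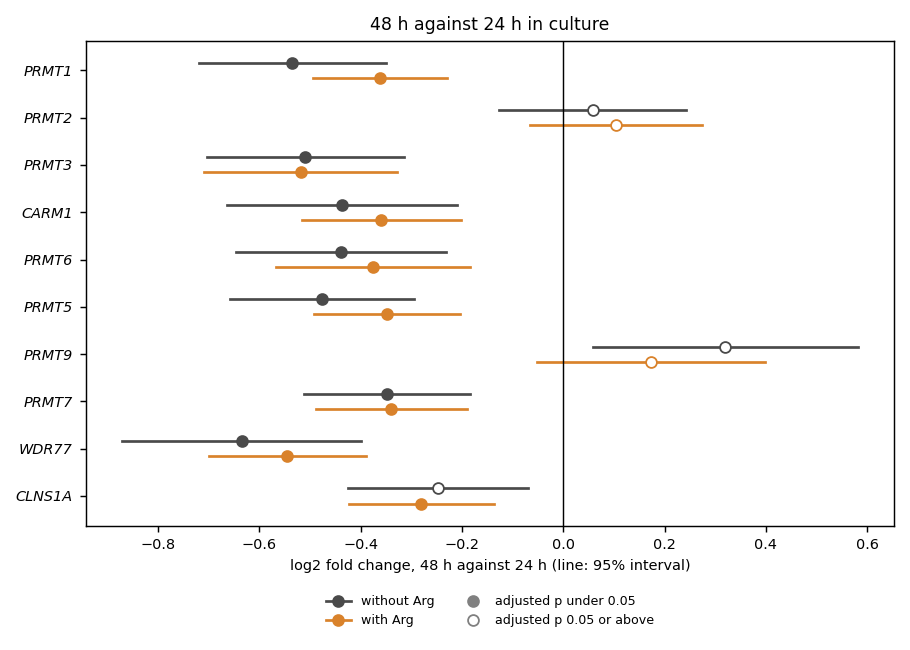
Log2 fold change of each gene at 48 h against 24 h, without Arg (grey) and with Arg (orange), with 95% intervals from the edgeR test and filled points for an adjusted p under 0.05. All but PRMT2 and PRMT9 lie left of 0 in both conditions, and PRMT2 and PRMT9 lie to the right.

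Arg-treated cells were then compared with the untreated control at 24 h. WDR77 was the only one of the 10 genes downregulated at an adjusted p under 0.05, where 3.84% of all 14279 tested genes were called lower and 6.63% in either direction. Its level of 127 ± 9.81 CPM in the control became 103 ± 4.91 CPM with Arg (SD, n = 3), a fall by 19.4% (log2 fold change -0.31, SE 0.085, adjusted p = 0.0347). All 3 Arg-treated libraries lay below all 3 controls. The call was lost with all 12 libraries in 1 model (adjusted p = 0.0507) and kept in the other 6 alternatives (from 0.0127). It was also lost when control replicate A (adjusted p = 0.190) or C (0.0779) or Arg replicate B (0.114) or C (0.166) was left out. The gene model of WDR77 shares 513 bases with ATP5PB on the opposite strand, and the strand setting of the counting is not given in the sources used here. ATP5PB, with 81207 counts against 20739 for WDR77, had a log2 fold change of -0.05 (SE 0.080, adjusted p = 0.747).

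PRMT1 was also lower in every Arg-treated library than in any control at 24 h. It stood at 379 ± 15.8 CPM against 441 ± 36.5 CPM, a log2 fold change of -0.22 (SE 0.080, 95% interval -0.39 to -0.05). Its unadjusted p was 0.0127 and its adjusted p 0.105. Without control replicate B, the lowest of the controls, the adjusted p was 0.0219, but without any other library it was between 0.0731 and 0.364, and over the alternatives it was 0.0783 to 0.109. WDR77 and PRMT1 were the 2 members with an unadjusted p under 0.05 by edgeR, which 22.8% of all tested genes met. The study used DESeq2 and called genes at a p-value under 0.05, after describing an adjustment, without saying which p-value was meant. CARM1 (153 ± 8.21 against 168 ± 3.95 CPM) and PRMT9 (21.8 ± 0.873 against 18.4 ± 2.10 CPM) were the other members whose groups did not overlap, the first lower and the second higher with Arg. That makes 4 of the 10 genes with groups apart, beside 26.2% of all tested genes. The log2 fold change was -0.14 for CARM1 (95% interval -0.31 to 0.02, adjusted p = 0.288) and 0.24 for PRMT9 (-0.01 to 0.50, adjusted p = 0.246). CARM1 shares 886 bases with YIPF2 on the opposite strand, which was itself lower with Arg at 24 h (log2 fold change -0.33, SE 0.090, adjusted p = 0.0359). The gene models of PRMT9 and TMEM184C, on opposite strands, share 34260 bases, and for TMEM184C the log2 fold change was 0.06 (SE 0.091, adjusted p = 0.728). Whether reads of either neighbour were counted for these genes was not tested.

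The other members had smaller log2 fold changes at 24 h. CLNS1A had a log2 fold change of -0.12 (95% interval -0.29 to 0.04) and PRMT2 of -0.06 (-0.24 to 0.12). For PRMT3, PRMT5, PRMT6, and PRMT7, the log2 fold changes were 0.02, 0.02, -0.0049, and 0.02. Their 95% intervals reached from -13.3% at the lowest, for PRMT6, to 16.6% at the highest, for PRMT3. The share of mitochondrially encoded counts also differed between these groups, at 1.20% to 1.30% in the controls and 0.624% to 0.802% in the Arg-treated libraries, and its part in the results was not tested.

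At 48 h, none of the 10 genes passed an adjusted p under 0.05 by edgeR or by DESeq2, where edgeR called 0.117% of 14562 tested genes. WDR77 alone had an unadjusted p under 0.05, a criterion met by 13.4% of all genes. It stood at 70.4 ± 2.20 CPM with Arg and 81.9 ± 12.3 CPM in the control (log2 fold change -0.22, SE 0.098, 95% interval -0.43 to -0.01, adjusted p = 0.354). Control B, at 68.4 CPM, lay within the Arg-treated range, while controls A and C lay above it. CLNS1A was at 192 ± 3.60 CPM with Arg and 213 ± 20.5 CPM in the control (log2 fold change -0.15, adjusted p = 0.388), again with control B inside the Arg-treated range. PRMT5 was the single member whose groups did not overlap, beside 17.1% of all genes. Its Arg-treated libraries held 121, 127, and 129 CPM, all above the controls at 119, 101, and 117 CPM (log2 fold change 0.15, 95% interval -0.01 to 0.31, adjusted p = 0.392). The remaining 7 members had log2 fold changes between -0.06, for CARM1, and 0.10, for PRMT9.

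Control replicate B at 48 h stood apart from the other controls. It was the lowest of its group for 9 of the 10 genes and the highest for PRMT9. Mitochondrially encoded genes took 1.55% of its counts, against 0.906% and 0.707% in replicates A and C. Without it, WDR77 (log2 fold change -0.33, adjusted p = 0.00164) and CLNS1A (-0.23, adjusted p = 0.00597) passed the test at 48 h, so that 2 of the 10 genes were called, while the log2 fold change of PRMT5 dropped to 0.08 (adjusted p = 0.385). The share of all tested genes called without control B is not given here, so these 2 cannot be set against it. With any other library left out, none was called. Without control C, the log2 fold change of WDR77 was -0.13 (adjusted p = 0.812).

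**Figure D3:**
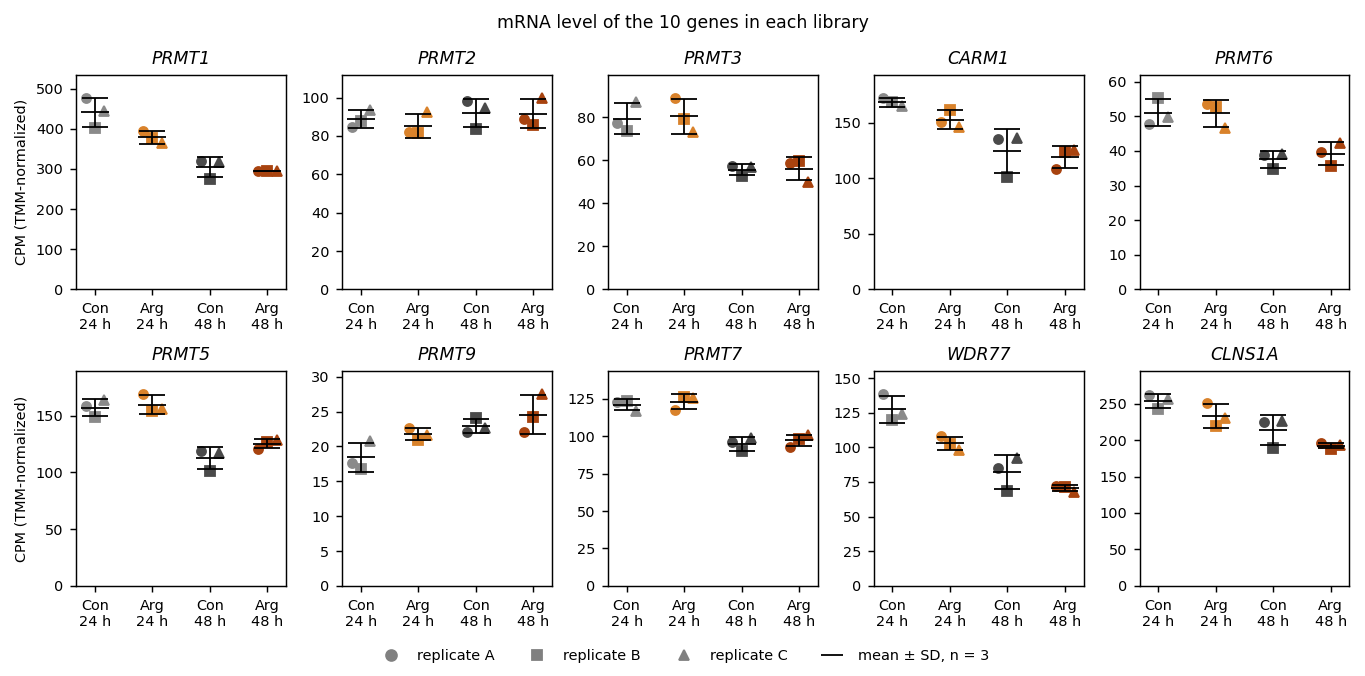
TMM-normalized CPM of each gene in the 12 libraries, with the mean ± SD of 3 libraries per group and a symbol per replicate letter. All panels but those of PRMT2 and PRMT9 step down from 24 to 48 h. In the WDR77, PRMT1, and CARM1 panels, all 3 Arg points at 24 h lie below all 3 controls. Control B (square) is the lowest 48 h control in 9 of the 10 panels.

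The change of the Arg effect from 24 to 48 h was tested as an interaction over all 12 libraries. None of the 10 genes passed, by edgeR or DESeq2, at an adjusted p under 0.05, and none had an unadjusted p under 0.05 by edgeR. Over all 15148 tested genes, 0.0132% passed at the adjusted and 6.87% at the unadjusted threshold. The largest interaction was that of PRMT1, at 0.18 (95% interval -0.04 to 0.39, adjusted p = 0.797), where a positive value means a smaller fall with Arg at 48 h than at 24 h. That of WDR77 was 0.09 (-0.19 to 0.37, adjusted p = 0.943). These intervals leave room for a difference between the time points in either direction.

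**Figure D4:**
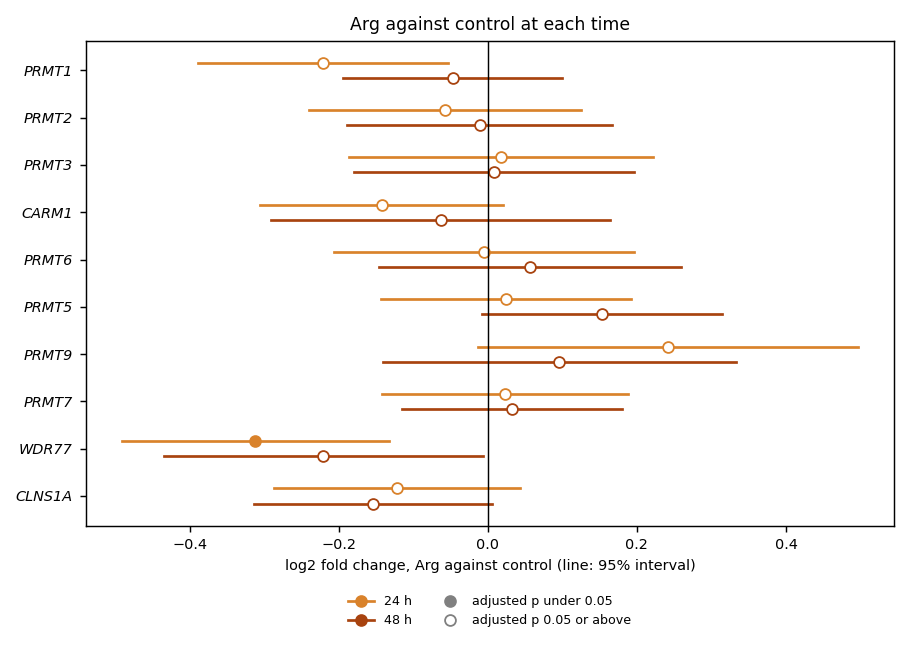
Log2 fold change of each gene in Arg-treated against control libraries at 24 h (light) and 48 h (dark), with 95% intervals from the edgeR test and filled points for an adjusted p under 0.05. WDR77 at 24 h is the only filled point, and the intervals of the 2 times overlap for every gene.

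The members of the PRMT5 complex were also set against each other within each library, which needs no scaling between libraries. These ratios, and the shares that follow, were chosen after the values had been seen and are given without a test. The log2 ratio of PRMT5 counts to WDR77 counts was 0.19, 0.31, and 0.40 in the controls at 24 h and 0.65, 0.59, and 0.67 with Arg. At 48 h, it was 0.49, 0.57, and 0.34 in the controls and 0.75, 0.83, and 0.92 with Arg. Every Arg-treated library lay above every control of the same time, including control B at 48 h. The log2 ratio of PRMT5 to CLNS1A counts was -0.69 ± 0.040 in the control and -0.55 ± 0.034 with Arg at 24 h, and -0.92 ± 0.023 and -0.62 ± 0.068 at 48 h (SD, n = 3), also without overlap. PRMT5 itself did not pass the test for Arg at either time, and of the partners WDR77 passed at 24 h only. In shares of the summed enzyme levels per kilobase of deposited length, the type II enzymes took 21.7 ± 0.652% in the control and 24.0 ± 0.755% with Arg at 24 h, and 22.5 ± 0.457% and 24.7 ± 0.451% at 48 h. The type I share was 72.7 ± 0.564% and 70.0 ± 0.673% at 24 h, and 71.6 ± 0.700% and 69.3 ± 0.538% at 48 h. Such shares depend on the length used, and those of the types were not computed by canonical length. In the control at 24 h, the share of PRMT1 was 40.0% by deposited and 57.5% by canonical length.

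**Figure D5:**
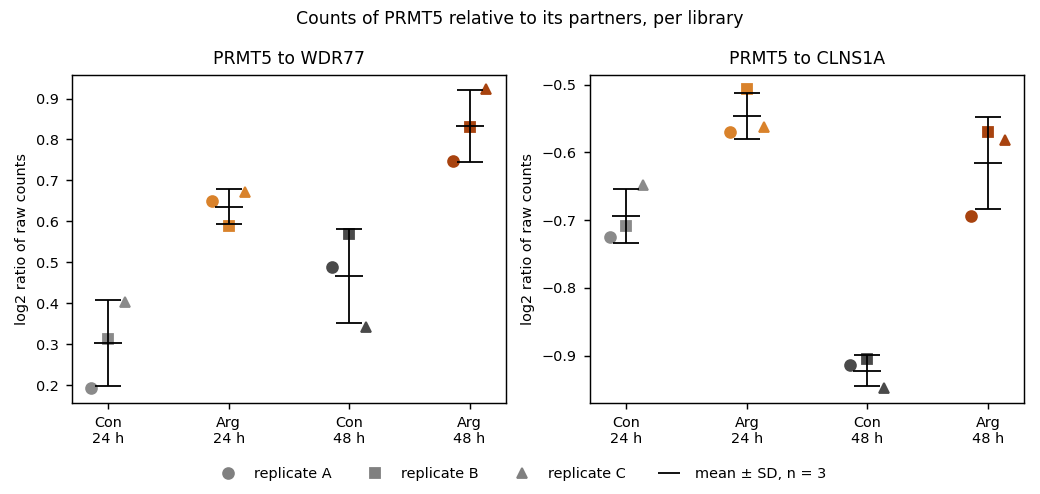
Log2 ratio of raw counts of PRMT5 to WDR77 (left) and to CLNS1A (right) in each library, with the mean ± SD of 3 libraries per group. The Arg-treated points lie above the control points of the same time in both panels, with PRMT5 to WDR77 at 0.19 to 0.40 in the controls and 0.59 to 0.67 with Arg at 24 h.

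The genes whose levels followed the members most closely over the 12 libraries were found by Pearson's r of log2 CPM over 15148 genes. For PRMT1, they were FOSL1 (r = 0.989), PDCD2, RPN1, SERPINE2, and ZPR1 (r = 0.980). For PRMT5, they were NOL6 (r = 0.970), CYTOR, NUFIP1, NUP93, and ALDH1B1 (r = 0.964). For WDR77, they were YDJC (r = 0.992), ANKLE1, TUBA4A, ATIC, and XDH (r = 0.981). The libraries share the 4 groups of time and treatment, so these values describe these samples and carry no p.

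Other genes of arginine methylation were read from lists of its partners, its methyl supply, its readers, the enzymes acting on the same residues, and its substrates. With Arg at 24 h, none of the 6 tested enzymes and partners outside the 10 genes passed, and the smallest p was that of NDUFAF7, a mitochondrial arginine methyltransferase (log2 fold change 0.29, adjusted p = 0.196). None of 6 genes of methyl donor supply and product removal passed by edgeR, whereas DESeq2 called MAT1A higher and MTAP, which recycles methylthioadenosine, lower. MAT1A, which makes S-adenosylmethionine, stood at 7.68 ± 0.321 CPM with Arg and 4.96 ± 0.844 CPM in the control (log2 fold change 0.63, SE 0.19, adjusted p = 0.0588). MAT2A of the same list had a far higher level, at 252 ± 6.19 CPM with Arg and 257 ± 13.9 CPM in the control. Its log2 fold change was -0.03 (adjusted p = 0.840), and that of MAT2B was -0.07 (adjusted p = 0.678). None of 5 readers passed (TDRD3, log2 fold change 0.30, adjusted p = 0.283), and none of 5 tested demethylation and citrullination genes (JMJD6, -0.19, adjusted p = 0.257). None of 2 tested genes that remove free methylarginine passed (DDAH1, -0.24, adjusted p = 0.200).

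Of the substrates, 18 RNA-binding and nuclear proteins known as PRMT1 targets with arginine- and glycine-rich stretches were tested. With Arg at 24 h, edgeR called 3 of them higher and none lower, beside 2.79% of all tested genes called higher by edgeR. DESeq2 called 5 higher and none lower, but its share over all genes is not given here, so the 5 cannot be set against it. Those called by edgeR included the splicing repressor HNRNPA2B1 (1509 ± 124 against 1214 ± 73.8 CPM, log2 fold change 0.31, adjusted p = 0.0259) and the nuclear matrix protein HNRNPU (985 ± 70.3 against 820 ± 33.0 CPM, 0.26, adjusted p = 0.0469). The list had 15 positive and 3 negative log2 fold changes and a median of 0.19, beside 0.0030 over all genes. This list of RNA-binding and nuclear proteins was chosen with earlier results of these data known. The study had already reported RNA splicing and mRNA processing as upregulated with Arg. The comparisons of this list with all genes, here and at 48 h, are therefore descriptive. Whether the shift is particular to PRMT1 substrates was not tested. At 48 h none of the 18 passed by edgeR or DESeq2, 8 had an unadjusted p under 0.05, all of them higher (5.94% of all genes met this), and 17 of the 18 log2 fold changes were positive (median 0.11, beside 0.0018 over all genes). None of the 6 Sm and Cajal body substrates of PRMT5 passed at 24 h (SNRPB, log2 fold change -0.20, adjusted p = 0.151), and none of the 9 substrates of CARM1, PRMT3, and PRMT9 (SF3B2, 0.21, adjusted p = 0.100). At 48 h, edgeR called no gene of these lists at the adjusted threshold, and DESeq2 called PADI4 alone, as lower.

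With time in culture, more of the related genes passed, and those named here were chosen after their values were seen, as were the genes named from DESeq2 alone. The PRMT5 cofactor COPRS also fell, by 0.62 on the log2 scale without Arg (adjusted p = 0.00480) and by 0.68 with Arg (adjusted p = 6.24e-05). It was the only 1 of 6 tested enzymes and partners called lower, beside 10% and 14% of all tested genes. Of the same list, BTG1 (0.61, adjusted p = 4.01e-05) and BTG2 (0.35, adjusted p = 0.0426) were called higher with Arg, 2 of 6 beside 14.3% of all tested genes. Without Arg, edgeR gave them log2 fold changes of 0.44 and 0.34 (adjusted p = 0.0622 and 0.134), and DESeq2 called BTG1 higher. RIOK1 was called in neither condition (-0.21 and -0.07, adjusted p = 0.117 and 0.581). Of the Sm and Cajal body substrates, SNRPB, SNRPD1, and LSM4 fell in both conditions, 3 of 6 beside 10% and 14% of all tested genes called lower, and SNRPB had log2 fold changes of -0.40 and -0.49. SNRPD3 had log2 fold changes of 0.20 (adjusted p = 0.0979) and 0.03 (adjusted p = 0.756). AHCY, which removes the S-adenosylhomocysteine left by methylation, fell by 0.45 on the log2 scale with Arg (adjusted p = 2.74e-05) and had an adjusted p of 0.0514 without Arg. The citrullinating enzymes PADI3 and PADI4 were called higher in both conditions. They are 2 of 5 tested genes of their list, beside 9.9% and 14.3% of all tested genes called higher. PADI1 had log2 fold changes of -0.56 and -0.73 (adjusted p = 0.255 and 0.129). Those of PADI2 were 0.42 and 0.31 (adjusted p = 0.335 and 0.425), so neither passed. PADI3 rose from 7.64 ± 1.85 to 17.9 ± 0.931 CPM without Arg (log2 fold change 1.23, adjusted p = 0.00186) and from 7.32 ± 2.16 to 13.9 ± 2.36 CPM with Arg (0.92, adjusted p = 0.00121). PADI4 rose from 1.61 ± 0.181 to 9.01 ± 2.07 CPM (log2 fold change 2.48, adjusted p = 0.000363) and from 1.35 ± 0.739 to 4.93 ± 0.791 CPM (1.86, adjusted p = 0.000318).

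The cells carried keratinocyte markers throughout. KRT5, the basal keratin, had between 24118 and 31695 CPM, and the summed level of 12 keratinocyte markers ran from 44880 to 52123 CPM in the controls and from 48993 to 56931 CPM with Arg at 24 h. Of these 12, only ITGA6 passed for Arg at 24 h by edgeR (log2 fold change -0.40, adjusted p = 0.00840), and DESeq2 also called KRT14. The 6 fibroblast markers summed to 34.2 to 54.4 CPM in the controls and 30.2 to 41.1 CPM with Arg at 24 h, and to 85.4 to 102.5 CPM and 72.7 to 100.3 CPM at 48 h. The fibroblast collagen COL1A2 had 2 counts in all 12 libraries, while DCN was lower with Arg at 24 h by edgeR (log2 fold change -0.70, adjusted p = 0.0294) but was not called by DESeq2. The summed levels of the endothelial, leukocyte, and melanocyte lists reached at most 2.13, 0.450, and 3.06 CPM in a library, and TYR had 0 counts. The fibroblast sum was higher at 48 h than at 24 h in all libraries, as 7 and 8 of the 10 genes were lower, and its part in those results was not tested. DCN and COL1A1 held 9738 and 3957 of the 14192 counts in that sum and rose with time in both conditions, whereas COL3A1 had 14 counts in all and PDGFRB had log2 fold changes of -0.11 and -0.16 (adjusted p = 0.874 and 0.863).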

How the data were processed

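RNA was sequenced from TIGK cells with 500 µM or no added Arg at 48 mM glucose for 24 or 48 h. The authors filtered paired-end reads with fastp, mapped them to GRCh38/hg38 with STAR, counted them per gene with featureCounts, and deposited raw counts, with gene coordinates and exonic lengths. The annotation release, strand setting, and tool versions are not given in the sources used here. All count columns were used, and 0 were left out. Groups and replicate letters came from the labels.

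Comparisons were made per pair of groups with edgeR 4.0.16 in R 4.3.3 (TMM, edgeR's filter on low counts, quasi-likelihood test), and the p-values of all tested genes were adjusted together (Benjamini–Hochberg). The interaction used all 12 libraries. Standard errors are the absolute log2 fold change over the square root of F. CPM used TMM over all 12 libraries. The smallest p that an exact permutation test of 1 gene could reach here is 0.1. The code was tested on simulated data. The replicates were compared by the chi-square of their counts, which was between 3.66 and 23.9 per degree of freedom, so none was a repeat of another.

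The 10 genes and the lists were chosen with earlier results of these data known. All 10 are named, with at most 5 genes per list that passed for Arg (otherwise the gene with the smallest p at 24 h) and the 5 genes most like PRMT1, PRMT5, and the member with the smallest p at 24 h. A gene that this rule names in a substrate list is not reported here. Alternatives were DESeq2 1.42.0, edgeR with that tool's size factors or with no TMM, a filter of 10 counts per library or none, 1 model of all 12 libraries, the replicate block, and leaving out each library. The canonical transcript length was added after seeing the data. Promoters came from RefSeq (GRCh38.p14), and all 10 genes matched.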

Additional observations from a re-analysis of the deposited data

How the results depend on the processing

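With all 12 libraries in 1 model, 0 of the 10 genes were called for Arg at 24 h. Leaving out 1 library at a time gave 0 to 2 genes at 24 h and 0 to 2 at 48 h, 0 for the interaction, 5 to 8 for time without Arg, and 8 in every case for time with Arg. The shares of all tested genes called in these fits are not given here. DESeq2 and the other analyses of all libraries kept the counts for Arg at 48 h and for the interaction at 0. Values near 0 turned sign. PRMT6 at 24 h was 0.00022 with library size only. Without 1 library, the log2 fold change for Arg at 24 h ran from -0.0673 to 0.0860 for PRMT3, -0.0227 to 0.0511 for PRMT5, -0.0517 to 0.0556 for PRMT6, and -0.00563 to 0.0519 for PRMT7. At 48 h it ran from -0.0755 to 0.0354 for PRMT2, -0.0365 to 0.0867 for PRMT3, -0.189 to 0.00518 for CARM1, and -0.00446 to 0.0607 for PRMT7. The interaction ran from -0.0196 to 0.110 for PRMT2, -0.0800 to 0.0725 for PRMT3, -0.0460 to 0.151 for CARM1, -0.0272 to 0.0425 for PRMT7, -0.0233 to 0.187 for WDR77, and -0.109 to 0.0237 for CLNS1A. The cause was not tested. With the replicate letter as a block, 1 gene was called for Arg at 24 h (WDR77, log2 fold change -0.31, adjusted p = 0.0392), 0 at 48 h, and 8 for time in each condition, the added one being CLNS1A without Arg (adjusted p = 0.00915). The deviations of same-lettered libraries from their group means correlated between -0.06 and 0.13, so no strong pairing by letter was seen. No scaling moved the median of all genes by more than 0.07 on the log2 scale. The 95% intervals of the Arg effect spanned 0 for 8 of the 10 genes at 24 h and for 9 at 48 h.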
